A study of Dichotomyctere nigroviridis with 22 samples.

Results

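The 12 sequenced hypothalami of vitellogenic green-spotted puffers fell into a set of 5 with much egg RNA and a set of 7 with little. The sets were chosen by 1 gene, zpax1 (ENSTNIG00000003663), which codes for a zona pellucida protein of the egg coat, with PNX-14 treated and control fish pooled. A hypothalamus with at least 500 zpax1 counts per 1e+06 counted reads (CPM) was placed in the first set and all others in the second. Control hypothalami (HC) 1, 2 and 5 and treated hypothalami (HT) 3 and 4 made up the first set, and HC3, HC4, HC6, HT1, HT2, HT5 and HT6 the second, out of 22 samples in the series. The libraries nearest the limit were HT3 above it at 776 CPM and HT1 below it at 317 CPM. Because the sets were drawn from measured values of the same libraries, differences in gene levels between them are described below and were not tested.

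All fish were females with vitellogenic ovaries, killed 24 h after a single intramuscular injection. The 6 HT fish received puffer-specific phoenixin-14 (PNX-14), a short peptide studied for its action on the reproductive axis, at 100 ng per g body weight, and the 6 HC fish received vehicle alone, given as sterile water in the study's methods and as saline in the submitters' description. Ovaries were sequenced from 5 control (OC) and 5 treated fish (OT), given as biopsies in the one source and as whole ovaries in the other. The sources used here gave no age, nor whether an ovary and a hypothalamus with the same number came from 1 fish.

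Each egg of a bony fish grows inside a follicle in the ovary. The oocyte stores maternal RNA for the embryo, arrests in meiosis with a stock of cell cycle messages, and is wrapped in a coat of zona pellucida proteins, which in fish are made by the oocyte, by the liver, or by both. Around it lie granulosa and theca cells, which make the sex steroids. The hypothalamus is brain tissue of neurons and glia that releases neuropeptides toward the pituitary, and it is not known as a site of egg coat synthesis. In bulk RNA, reads of a gene that came in with ovary tissue or fluid and reads of the same gene made in the hypothalamus cannot be told apart, and neither can fewer cells of a type from less RNA per cell.

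The zpax1 gene lies on chromosome 14 (4263811 to 4268038, plus strand, in the TETRAODON 8.0 genome used for the files). Its level was 1269 CPM in HC1, 1673 in HC2, 1201 in HC5, 776 in HT3 and 1627 in HT4. In the other set it was lowest in HC3 at 28.7 CPM, had a median of 213 CPM and was highest in HT1 at 317 CPM. Control ovaries held 9780 ± 2854 CPM (SD, n = 5). Even the lowest hypothalamus had 305 zpax1 reads, so the gene was detected in every library of both sets. Total counted reads were alike, from 9652996 to 12729314 per library in the 5 and from 9140910 to 12615772 in the 7, against 11756975 to 15735216 in control ovaries.

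Hypothalamic RNA was present in both sets. The summed level of 34 neuronal genes was 7468 to 9909 CPM in the 5 libraries and 6832 to 9547 CPM in the 7, compared with 406 CPM in control ovaries. The neuropeptide genes oxt and avp, which code for the fish relatives of oxytocin and vasopressin, were read at 1198 to 2000 CPM and at 77.7 to 271 CPM in the 5, and at 892 to 3508 CPM and 78.1 to 339 CPM in the 7. These ranges overlapped, and control ovaries had 0.604 CPM of oxt.

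To express the egg RNA as a share of ovary RNA, 173 ovary genes other than zpax1 were used. Each averaged 50 CPM or more over control ovaries and at least 100 times its lowest hypothalamus level. The share of a library was the median, over these genes, of its level as a percent of the control ovary mean, so it includes whatever the hypothalamus itself makes of them. It was 11.8% in HC1, 14.2% in HC2, 18.2% in HC5, 9.79% in HT3 and 15.5% in HT4. In the set of 7 it was lowest in HC3 at 0.402%, had a median of 2.57% and reached 4.34% in HT1. The means were 13.9% ± 3.27 (SD, n = 5) and 2.24% ± 1.34 (SD, n = 7). By this median, every library with much zpax1 also had more of the other ovary genes than any library with little. Not every single gene followed, as TST was at 16.9% of the control ovary level in HT1 but 8.06% in HC1. The genes were also picked for a low level in some hypothalamus, so the low end of the share is partly fixed. HC5 ranked first by share although 3 of the other libraries had more zpax1.

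**Figure D1:**
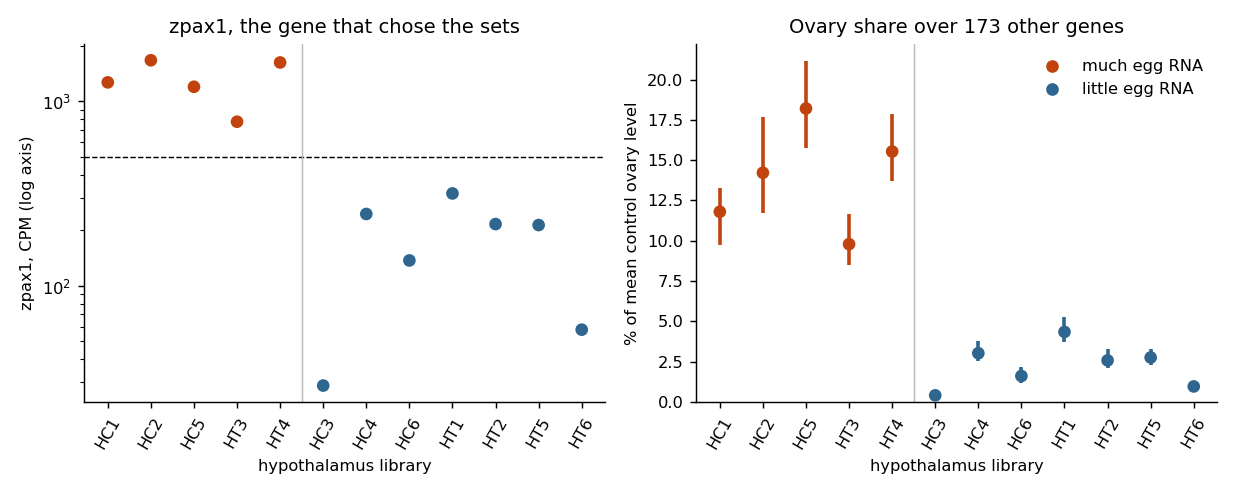
Left, zpax1 (CPM, log axis) in the 12 hypothalamus libraries, with the limit of 500 CPM dashed. Right, the ovary share (percent of the mean control ovary level; point, median over 173 other genes; bar, quartiles), which is 9.79 to 18.2% in the set with much egg RNA (red, left of the grey line) and 0.402 to 4.34% in the set with little (blue).

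The set did not follow the injection. Much egg RNA was found in 3 of 6 control and 2 of 6 treated hypothalami (two-sided Fisher's exact test, p = 1.000). The ovary share averaged 8.21% ± 7.49 in controls and 5.99% ± 5.59 after PNX-14 (SD, n = 6 each), a difference of -2.22 percentage points (two-sided exact permutation test, p = 0.5736). Read from egg coat genes alone, the means were 9.42% and 7.00% (exact permutation p = 0.6147). The differences were smaller than the spread within each treatment, and with 6 fish a side a modest effect of treatment on the share would not have been detectable.

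Egg coat genes were among the most abundant messages of the 5 hypothalami. The list had 4 measured members, of which zpax1 was higher through the rule, and the other 3 were higher as well. On the FPKM scale, which corrects for gene length and which the authors computed for each organ's table, zp3f.1 averaged 745 in the 5 and 103 in the 7, zp2l2 651 and 85.8, zpax1 494 and 65.5, and zp3f.2 363 and 41.9. By mean FPKM over the 5 libraries, zp3f.1 ranked 103 among 19979 genes. In control ovaries the same genes reached FPKM means of 4845, 4105, 3693 and 1625.

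On the CPM scale the levels of zp3f.1 were 564 CPM in HC1, 1029 in HC2, 852 in HC5, 524 in HT3 and 1067 in HT4, against 13.7 to 221 CPM in the 7. Those of zp2l2 were 685, 1199, 771, 602 and 978 CPM in the same order, against 17.3 to 210 CPM. The zp3f.2 gene, which is the next gene to zp3f.1 on chromosome 15 (2197987 to 2199790 and 2200573 to 2202347), had 349, 615, 378, 252 and 514 CPM, against 6.02 to 86.8 CPM. HC2 or HT4 was the highest library and HT3 the lowest for each of these genes.

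Over all genes, a gene was called higher when the lowest of the 5 libraries lay above the highest of the 7 and the ratio of means was at least 2-fold, after adding 0.5 CPM. By this description 640 of 17360 measured genes (3.69%) were higher and 10 (0.0576%) were lower. The 640 include zpax1, which chose the sets. Measured genes had at least 10 counts in at least 5 of the 12 libraries, so reads in the 5 alone were enough. With 10 counts asked of all 12 libraries, 462 genes were higher and 5 lower. The 640 had a median log2 ratio of 1.68, compared with -0.03 over all measured genes. Their median was 1.96 when only controls were compared and 1.40 when only treated fish were. With controls alone 1010 genes met the description, 631 of them among the 640, and with treated fish alone 597 did, 527 of them among the 640.

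Levels in the control ovary accounted for nearly all of them. For each gene the excess in the 5 libraries was set against the excess that the difference in ovary share, 11.7 percentage points, would carry in at the gene's control ovary level. This percentage was at least 50 in 629 of the 640 genes, between 10 and 50 in 10, and under 10 in 1. The smaller counts were less stable. With each library left out in turn the second ran from 10 to 23 (20 without HC1 or HT3, 23 without HT2) and the third from 0 to 3 (0 without HT4, 2 without HC3, HC4, HT3, HT5 or HT6, 3 without HT2). The second was 33 with the limit at 67% and 5 with it at 33%, and 6 with the highest control ovary as reference. The third was 0 with that reference or with the share read from egg coat genes. The median percentage was 96.2, with quartiles of 83.7 and 107, and 616 genes lay between 50 and 150. In 639 of the 640 the ovary level was above the mean of the 5 hypothalami. The share itself was read from genes of this kind, 167 of which are among the 640, so a median near 100 for those is built in. The other 473 were not used for it, but their median was not taken apart from that of the 640. Of 784 measured genes whose ovary level was over 10 times the mean of the 7 hypothalami, 605 were higher. The mean of the 7 both picked these genes and entered the call, so this count is partly fixed. Genes behind the share were not set apart in it.

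**Figure D2:**
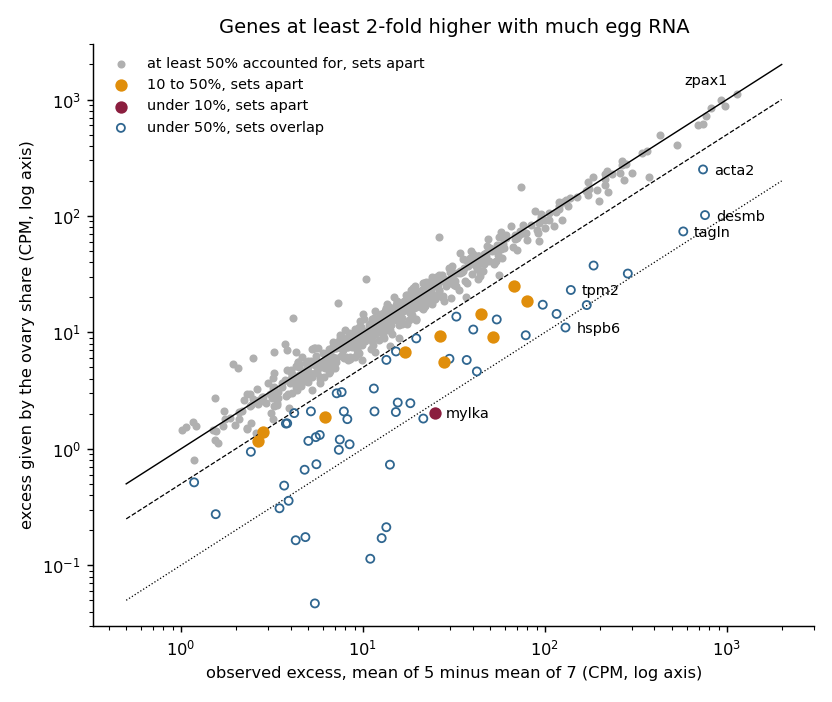
Excess in the 5 libraries over the 7 (x, CPM) against the excess given by the ovary share (y, CPM), both on log axes, 1 point per gene with a value above 0 on y. Solid, dashed and dotted lines mark 100, 50 and 10 percent; 629 of the 640 genes with sets apart (filled) are at or above the dashed line. Open circles are the genes under 50 percent whose sets overlap, desmb, tpm2 and acta2 among them.

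Oocyte and germ line genes followed the egg coat. Of 20 measured oocyte genes 15 were higher, with a median log2 ratio of 2.46, and each of the 15 had an ovary percentage of at least 50. Members such as zar1, ddx4, gdf9, bmp15, btg4 and both pou5f3 genes are among the 173 genes behind the share. For those a percentage near 100 is partly built in, so it is no separate support. Levels of zar1, a maternal RNA regulator of the early embryo, were 101 CPM in HC1, 119 in HC2, 209 in HC5, 99.7 in HT3 and 150 in HT4, against 4.42 to 41.3 CPM in the 7 and 947 CPM in control ovaries. The germ plasm helicase gene ddx4 stood at 27.4, 36.8, 47.1, 28.7 and 36.7 CPM in the same libraries, against 0.282 to 10.6 CPM. The gene ENSTNIG00000003465, named pou5f3 after the pluripotency factor that is the fish relative of mammalian Oct4, had a ratio of 7.70-fold. Another gene of this symbol, ENSTNIG00000013239, was higher too. For btg4, needed in mice for clearing maternal RNA, the ratio was 6.27-fold. For these oocyte genes HC5 or HT4 was the highest library, rather than HC2.

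Meiosis and cell cycle genes were higher in the same libraries. Of 22 measured genes of meiosis and egg maturation 10 were higher (median log2 ratio 1.32), and of 36 genes of cell proliferation 23 were (median 1.46), as were 10 of 19 of chromosome condensation (median 1.04). The lists share members such as ccnb1 and cdk1. The cyclin ccna2 reached 279 CPM in HC1, 436 in HC2, 349 in HC5, 241 in HT3 and 274 in HT4, against 6.21 to 79.4 CPM in the 7, and 1773 CPM in control ovaries. The mitotic and meiotic cyclin ccnb2 averaged 261 FPKM in the 5 and 45.7 FPKM in the 7. For spo11, the enzyme that makes the DNA breaks of meiotic recombination, the ratio was 6.44-fold.

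After the ovary part of each library was taken off, the median log2 ratio was 0.19 for meiosis, -0.06 for proliferation and -0.18 for chromosome condensation, compared with -0.02 over all measured genes. It was 1.58 for oocyte genes and 6.36 for the egg coat, whose ratios then rest on small remainders, since for zpax1 the ovary part exceeded the level read in each of the 7. Before the ovary part was taken off, 9 of 11 measured genes of the MCM2/3/5 domain family, which unwind DNA for replication, were higher. The zona pellucida domain gave 14 of 26, against 3.69% of all measured genes. All 7 measured genes with an MCM N-terminal domain were higher. These counts may share genes with each other and with the lists above.

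Relative to control ovary, follicle cell genes were read at a lower share than oocyte genes in the 5 libraries. Of 18 measured follicle genes 4 were higher, 11 had a positive and 7 a negative log2 ratio, and the median was 0.26 (-0.06 after the ovary part). Their summed level was 226 to 278 CPM in the 5 and 203 to 264 CPM in the 7, with overlap. Shares could be read only from list members with at least 10 CPM in control ovary and 100 times their lowest hypothalamus level. Read from 15 such oocyte genes, the ovary share was 11.4% in HC1, 14.6% in HC2, 20.9% in HC5, 10.1% in HT3 and 15.2% in HT4. Read from the 7 follicle cell genes within these limits it was 4.18, 6.23, 12.4, 4.22 and 7.66% in the same libraries. Every one of the 5 had less of the follicle genes than of the oocyte genes, relative to ovary. In the 7 the follicle share was 0.232 to 1.45% and the oocyte share 0.261 to 4.43%. HC3 there had the reverse order, with 0.907% from follicle and 0.261% from oocyte genes. From 8 meiosis genes the shares were 13.2, 14.4, 20.8, 12.3 and 14.1%, and from 3 egg coat genes 12.8, 22.5, 16.2, 11.3 and 20.3%. The mean over the 5 libraries was 6.94% ± 3.40 from follicle genes and 14.5% ± 4.17 from oocyte genes (SD, n = 5).

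**Figure D3:**
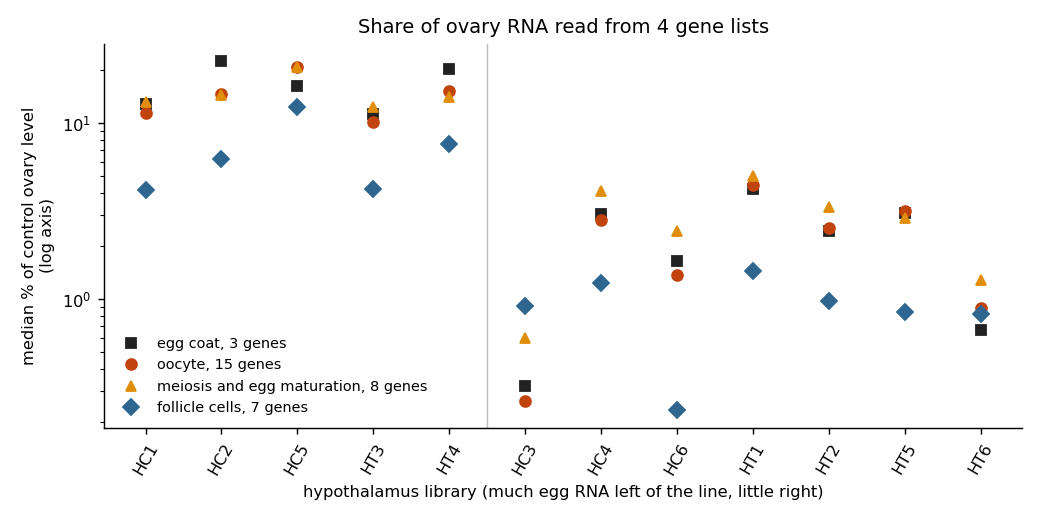
Share of ovary RNA in each hypothalamus (median percent of the control ovary level, log axis) read from egg coat, oocyte, meiosis and follicle cell genes. In the 5 libraries left of the grey line follicle cell genes (blue diamonds) give 4.18 to 12.4%, below the other lists in each library.

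Single genes showed which follicle messages these were. The steroid enzyme hsd17b1, which reduces estrone to estradiol, was read at 13.8, 11.1, 13.7, 11.2 and 10.95 CPM in HC1, HC2, HC5, HT3 and HT4, and at 0.753 to 3.08 CPM in the 7. It was higher by 5.68-fold, but the ovary share at its control ovary level of 248 CPM would have carried in 276% of that excess. The corresponding figures were 278% for hsd3b1 and 212% for cyp17a1, which act earlier in steroid synthesis. Ovary percentages above 200 were found in 10 of the 640 genes, which also included ecm1a, gata6, cx34.5, pdzd3b and GRB14, the last 4 of which were named after their values were seen. Relative to the share of its library, hsd17b1 stood at 0.366, cyp17a1 at 0.412, gata6, a factor of follicle cells in mammals, at 0.425, and ecm1a at 0.387 (means over the 5), where the quartiles over the 173 genes were 0.924 and 1.13. At the other end the 4 highest of the 173 were muscle genes, desmb at 5.32 and 3 alpha actins at 1.97 to 4.22, which as 4 values in a median of 173 weigh little in the share. Next came epcam, a surface protein of epithelia and of germ cells, at 1.76 and zp3f.2 at 1.62. The value of spo11 was 1.47.

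Muscle genes did not divide the hypothalami the way egg genes did. Desmin (desmb, ENSTNIG00000017154, chromosome 3, 971535 to 975678, minus strand), the intermediate filament protein of muscle, was read at 68.7 CPM in HC1, 153 in HC2, 2193 in HC5, 118 in HT3 and 1418 in HT4. In the 7 it ranged from 5.46 CPM in HC3 through a median of 20.3 to 128 CPM in HT2. HC5 and HT4 stood far above all others, and HT2, with little egg RNA, had more desmb than HC1 or HT3, so the sets overlapped. The ovary share would give 107, 128, 164, 88.4 and 140 CPM in the 5, at a control ovary level of 903 CPM. HC1, HC2 and HT3 were thus near the level given by ovary RNA, and HC5 and HT4 were not. Among the 7, HT2 stood farthest above it, with desmb at 14.2% of the control ovary level against an ovary share of 2.57%.

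The beta tropomyosin gene tpm2 (ENSTNIG00000005104), whose product binds actin in muscle, had the same order, with 17.2, 41.2, 403, 32.7 and 243 CPM in HC1, HC2, HC5, HT3 and HT4, against 2.54 to 24.3 CPM in the 7. The ovary part was 37.6 CPM in HC5 and 32.1 CPM in HT4. Smooth muscle actin acta2 had 163, 242, 2837, 160 and 601 CPM, against 26.2 to 167 CPM, and tagln (transgelin, of the smooth muscle cytoskeleton) 137, 276, 1971, 156 and 965 CPM, against 86.5 to 209 CPM. For both genes HT2 was again the highest of the 7 and lay above HC1. Myosin heavy chain myh11a, smoothelin smtna and the small heat shock protein hspb6 shared this pattern, with HC5 first and HT4 second.

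**Figure D4:**
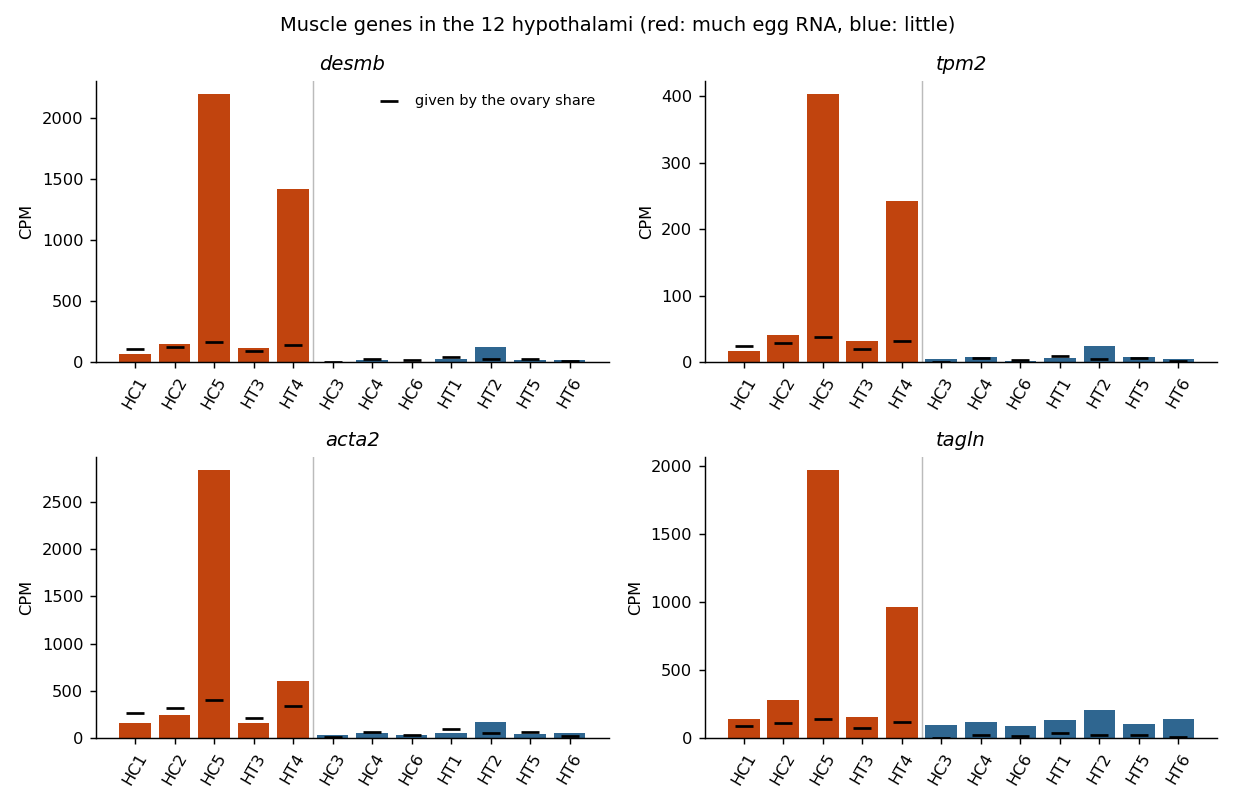
Levels (CPM, bars from 0) of desmb, tpm2, acta2 and tagln in each hypothalamus, with the level given by the ovary share as a black tick. In HC5 desmb is at 2193 CPM with 164 given by ovary, whereas in HC1 it is at 68.7 CPM with 107 given.

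Genes that ovary RNA did not account for were often highest in the same libraries. Among genes at least 2-fold higher, overlap allowed (799 genes, 4.60%), 78 had an ovary percentage under 50. In 56 of the 78 HC5 and HT4 were the 2 highest of the 5 libraries, and in 58 HC5 was the highest. HC5 and HT4 were also the 2 highest in 267 of the 629 genes accounted for. These counts are not alike, since the 629 had sets apart, while the 78 were taken with overlap allowed. A mean raised by few libraries and an ovary percentage under 50 also favour the order counted in the 78. Of the 78, 15 belong to a muscle list and 63 to none. The 11 such genes whose sets did not overlap were 3 alpha actins (a pair named ACTA1 and ENSTNIG00000017449), pdlim3a, smtnb, mylka, MFAP4, hoxc13a, slc19a3a and 2 without a symbol. The 3 actins are close copies, and reads may be split among them. For mylka, the smooth muscle kinase that phosphorylates myosin light chain and the only one under 10%, the levels were 11.1 CPM in HC1, 18.2 in HC2, 62.1 in HC5, 12.8 in HT3 and 59.0 in HT4, against 4.46 to 9.41 CPM in the 7 and 25.2 CPM in ovary. Without HC5 and HT4 there were 570 higher genes, of which 557 were accounted for to at least 50%, 12 in part and 1 not.

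As lists, smooth muscle genes had a median log2 ratio of 0.88 with 2 of 19 measured genes higher, and skeletal muscle genes one of -0.02 with 3 of 36 higher. Of all measured genes 3.69% were higher. The 3 were gapdh and the pair named ACTA1, annotated as cardiac alpha actin. This gapdh gene had 2067 CPM in control ovaries and was read at 0.469% of that in HC3. Its ovary percentage was at least 50, but all 3 are among the 173 genes behind the share, so this is partly built in. None of the 6 matched genes of heart muscle was measured above the limit on low counts. Summed smooth muscle levels were 1163 CPM in HC1, 1583 in HC2, 9491 in HC5, 1344 in HT3 and 4641 in HT4, against 867 to 1347 CPM in the 7. Of this the ovary share gave 998 CPM in HC5 and 852 CPM in HT4. Neither muscle sum differed by treatment beyond the spread (exact permutation p = 0.5996 for skeletal and p = 0.7316 for smooth muscle, 6 fish a side).

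A gene of another kind was dpydb (ENSTNIG00000005550), which codes for the first enzyme of pyrimidine breakdown and was scarce in ovary. It was read at 63.1 CPM in HC1, 65.2 in HC2 and 36.4 in HC5, but at 6.23 CPM in HT3 and 5.20 CPM in HT4. In the 7 libraries it ranged from 1.55 to 6.62 CPM, and control ovaries had 2.86 CPM, so the ovary percentage was -0.45. High dpydb was thus seen in the 3 control hypothalami with much egg RNA, while the 2 treated ones lay inside the range of the other set. Among controls alone the log2 ratio was 3.15, and among treated fish 0.91. In edgeR's quasi-likelihood test the difference between these, the interaction of set and treatment, was -2.23 on the log2 scale (SE 0.45, unadjusted p = 0.000246, adjusted p = 0.7763 over 17126 genes), which did not pass. Of the 6 measured pyrimidine genes 0 were higher by the description above, and the levels of cdab, which breaks down cytidine, were 7.78 to 13.5 CPM in the 5 and 5.90 to 13.5 CPM in the 7.

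A further gene shows a split that crossed the sets. The RNA polymerase II associated gene rpap1, chosen after its values were seen, had 258, 229 and 188 CPM in HC1, HC2 and HC5 and 35.9 to 54.9 CPM in the other controls. In treated fish with little egg RNA, however, HT2 had 455 CPM and HT6 had 324 CPM, with 262 CPM in HT3 and 65.6 CPM in HT4. Its control ovary level was 83.5 CPM. Agreement among the 3 controls of the set therefore did not carry over to treated fish for this gene.

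Treatment and set could be separated because both sets held fish of each treatment. The PNX-14 effect was tested with the set as a term, across 17126 genes with edgeR's quasi-likelihood test. No gene passed an adjusted p of 0.05 (0%), and the smallest adjusted p was 0.998. In this edgeR test 634 genes had an unadjusted p under 0.05, fewer than the fraction of 0.05 met on average without any effect. DESeq2 with the same design called 7 genes, among them dkk3a and dpydb. In edgeR dpydb stood at -2.03 (SE 0.41, adjusted p = 0.998), ENSTNIG00000002249 at 0.98 (SE 0.20, adjusted p = 0.998) and ENSTNIG00000000358 at 0.89 (SE 0.19, adjusted p = 0.998) on the log2 scale. Levels of ENSTNIG00000002249 were 6.89 to 15.5 CPM in the 6 treated and 4.46 to 6.06 CPM in the 6 control hypothalami, without overlap, in both sets. This gene was picked for the smallest unadjusted p of the test. How many of all genes lacked overlap between treatments was not counted, so its separation adds nothing to the test.

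Whether the difference between the sets was the same in both treatments was tested as an interaction. No gene passed in edgeR (0%), and DESeq2 called 1 gene, dpydb. In edgeR 1007 genes had an unadjusted p under 0.05, somewhat more than a fraction of 0.05 of those tested. After dpydb the smallest unadjusted p values belonged to ENSTNIG00000014086 and fam98b, with interactions of 2.51 (SE 0.53) and -1.75 (SE 0.38) on the log2 scale. For desmb the interaction was -2.29 (SE 2.17, adjusted p = 0.814) and for tpm2 -1.32 (SE 1.82, adjusted p = 0.866). With 2 treated libraries in the first set, these standard errors leave room for differences of several-fold.

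The ovaries gave a comparison that zpax1 in hypothalami had not fixed. Each ovary was placed in the set of the hypothalamus with its treatment and number, which the sources do not state to be the same fish. Across 14777 genes in 10 ovaries, with treatment as a term, no gene passed in edgeR (0%), while DESeq2 called 11. The smallest adjusted p in edgeR was 0.697. There 940 genes had an unadjusted p under 0.05, somewhat more than a fraction of 0.05 of those tested. Ovarian zpax1 differed by 0.07 on the log2 scale (SE 0.23, adjusted p = 0.969), desmb by -0.40 (SE 0.24, adjusted p = 0.807) and tpm2 by -0.44 (SE 0.19, adjusted p = 0.773). The smallest p values were those of nmd3 (-2.50, SE 0.43, adjusted p = 0.697) and nucb1 (-1.58, SE 0.28, adjusted p = 0.697).

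On the lower side the sets were much closer. The 10 lower genes had a median log2 ratio of -1.17 and low levels, and 4 of them carry a symbol. The kinase PTK2B was read at 18.4 CPM in HC1, 10.7 in HC2, 10.3 in HC5, 8.66 in HT3 and 15.9 in HT4, against 19.0 to 41.0 CPM in the 7. The blood progenitor factor myb, which in mammals acts in haematopoietic cells, had 1.33 to 2.49 CPM against 2.82 to 7.22 CPM, and cd40lg, the T cell ligand of CD40, 0.912 to 2.17 CPM against 2.196 to 5.800 CPM. PRTG, a cell surface protein of the embryo, had 0.829 to 1.94 CPM against 3.67 to 6.62 CPM. For a gene absent from ovary, the mean ovary shares correspond to a log2 ratio of -0.18, and the shares of HC5 and HC3, the highest and the lowest, to one of -0.28. The part of such dilution in these differences was not tested.

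Immune genes made up the lists with the lowest medians. All 15 measured genes of T, NK and B cells had a negative log2 ratio (median -0.91). So did 19 of 20 of microglia and macrophages (median -0.68) and 15 of 16 of the interferon response (median -0.64). The median over all measured genes was -0.03, and their share with a negative ratio was not counted. In the same order, the list medians were -0.52, -0.42 and -0.73 among controls alone. Among treated fish alone they were -1.11, -0.87 and -0.55. None of the genes in these lists was called lower, which asked for both no overlap between the sets and a drop of at least 2-fold. Overlap by itself was not counted for these lists. HC3, with little egg RNA, had low immune levels too. The T cell kinase gene lck was read at 9.63 CPM in HC1, 3.49 in HC2, 3.06 in HC5, 1.75 in HT3 and 5.93 in HT4, and at 3.95 CPM in HC3 but 10.46 to 18.95 CPM in the other 6. Its partner zap70 had 16.7, 4.62, 4.87, 2.04 and 15.8 CPM in the 5, 4.71 CPM in HC3 and 20.9 to 39.1 CPM in the other 6.

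HC3 had low immune levels, so leaving it out by itself favours a separation of such genes. Without HC3 the comparison gave 106 lower genes of 17360 measured, in place of 10. Among the 106 were 4 of the 15 lymphocyte genes and 4 of the 20 microglia and macrophage genes. These included lck, zap70, irf8, a factor of microglia and macrophages in zebrafish, and the pan-leukocyte phosphatase ptprc, named after its values were seen. Leaving out HC1 gave 37 and leaving out HT4 gave 29, so the count on this side depended on single libraries. Summed microglia and macrophage levels were 1016, 722, 718, 643 and 1015 CPM in the 5, against 706 CPM in HC3 and 1170 to 1913 CPM in the other 6. Interferon genes were mixed. The ubiquitin-like isg15 had 65.1 CPM in HC1 and 183 CPM in HT4 but 4.67 to 11.7 CPM in HC2, HC5 and HT3, and 9.32 to 284 CPM in the 7. After the ovary part was taken off, the median log2 ratio was -0.88 for T, NK and B cell genes. It was then -0.68 for microglia and macrophages and -0.67 for the interferon response. The part of ovary RNA, blood or cell numbers in the immune differences between the sets was not tested. Red cell and clotting genes, as a list of 8, had a median log2 ratio of -0.18 and summed levels of 519 to 1968 CPM in the 5 and 485 to 2701 CPM in the 7.

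**Figure D5:**
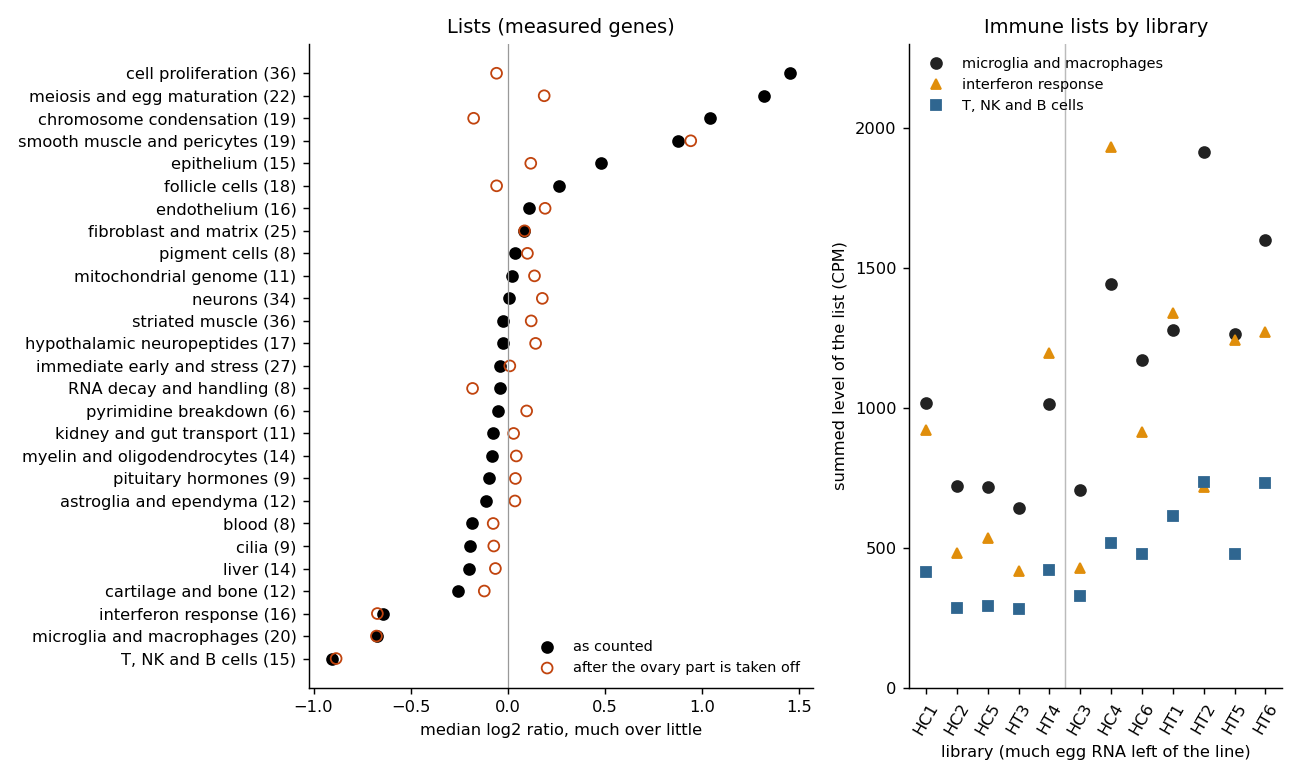
Left, median log2 ratio of the 5 libraries over the 7 for the gene lists other than egg coat, oocyte and heart muscle (measured genes in parentheses), as counted (black) and after the ovary part was taken off (open circles); T, NK and B cell genes are lowest at -0.91. Right, summed level (CPM) of 3 immune lists in each library, with HC3 low among the 7.

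The other lists stayed near 0. In 17 lists of neurons, neuropeptides, glia, myelin, vessels, fibroblasts, cartilage, blood, cilia, liver, kidney and gut transport, pigment, pituitary, mitochondrial genome, stress, pyrimidine and reference genes, medians ran from -0.26 for cartilage and bone to 0.11 for endothelium. Among their 241 measured members 5 (2.07%, against 3.69% of all measured genes) were higher, namely LHX3, fa2h, slc24a5, dusp2 and atf3, each with an ovary percentage of at least 50. Of 15 measured epithelial genes 3 were higher (median log2 ratio 0.48), namely epcam, cldn7b and esrp2. The junction gene cldn7b had 66.5, 65.7, 146, 61.3 and 77.0 CPM in HC1, HC2, HC5, HT3 and HT4, against 2.17 to 30.2 CPM in the 7 and 562 CPM in ovary. In these libraries HC5 was highest for cldn7b, HC2 for epcam and HC1 for esrp2.

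Neuronal genes as a list had a median log2 ratio of 0.01. The largest ratio in it was that of neflb, a neurofilament subunit, with 111 CPM in HC1, 76.8 in HC2, 99.1 in HC5, 46.7 in HT3 and 46.3 in HT4, against 15.1 to 74.0 CPM in the 7. It was listed at 0 in the 5 control ovaries, and the sets overlapped. The enzyme of acetylcholine synthesis, chata, which had no ovary row to compare, had a ratio of 1.69-fold, with 10.7 to 31.2 CPM against 10.4 to 16.7 CPM. The neuropeptide gene vip had 125 CPM in HC1 and 81.9 CPM in HT4, against 4.96 to 21.8 CPM in HC2, HC5 and HT3 and 5.14 to 84.0 CPM in the 7, so its levels varied within each set more than between them.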

How the data were processed

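Hypothalamus and ovary poly(A) RNA of PNX-14 treated and control puffers was sequenced. Paired reads were cleaned by the authors (fastp), placed on the Ensembl puffer genome TETRAODON 8.0 (HISAT2) and assigned to genes (featureCounts). The sources used here give neither tool versions nor the strand setting of featureCounts, so overlapping, antisense and near-identical genes may share reads. Each organ's deposited table holds raw counts for every library, not normalized. Beside them stand FPKM, for which the authors divided by gene length and by mapped reads. The authors' own comparisons (log2 fold changes and p-values from DESeq2) and 22 columns of size-factor scaled values were not used. Symbols came with the files for 14886 of 19979 genes.

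CPM were computed on column totals (9140910 to 12729314 reads per hypothalamus), which sets the counting precision. Genes with at least 10 counts in at least 5 of the 12 hypothalami were described. Of the 17360, 230 had no ovary row and were taken as 0 there. For each gene, the ovary excess was the difference in mean share times the control ovary mean minus the mean of the 7. The ovary part of a library was its share times the control ovary mean. Sums of skeletal muscle genes given with tests left out tpm3, eno3, aldoaa and gapdh.

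Tests ran in R 4.3.3 with edgeR 4.0.16 (TMM, filterByExpr, robust quasi-likelihood, Benjamini-Hochberg adjustment at 0.05) and DESeq2 1.42.0 as alternative. Standard errors of edgeR fold changes are the log2 value over the square root of F. Exact permutation and Fisher tests used scipy 1.17.1 in Python 3.11.15. The labels do not say more than that the samples are separate, and the study's methods give 6 injected fish per treatment. The tests therefore took each sample of an organ as 1 fish. A relation of egg coat and muscle levels within the 7 was computed but is not reported, since its egg coat sum holds zpax1. The count tests and the share were tested on simulated data. The members, gene lists and named genes (leading genes of each class, list and test) were chosen with earlier results of these data known. Alternatives covered the filter, the overlap rule, the genes behind the share, the ovary reference, the treatments apart, the normalization, a replicate block and each library left out.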

Additional observations from a re-analysis of the deposited data

Results flagged for a closer look

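In 1 of 16 groups checked, a library lay far from the others by Dixon's criterion, which chance meets in about 1 of 20 groups. The summed level of smooth muscle genes in HT2 was 1347 CPM, against 867 to 1033 CPM in the other 6 hypothalami with little egg RNA. Members of this sum that were highest of the 7 in HT2 included desmb (128 CPM), acta2 (167 CPM) and tagln (209 CPM), so they are part of the flagged value. The tpm2 gene, which is not in the sum, was also highest in HT2 (24.3 CPM). HT2 had an ovary share of 2.57%, the median of its set.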

How the results depend on the processing

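The count of higher genes stayed within 1.5 times of 640 in 19 of 20 alternatives and was 1010 with controls alone. The lowest of these counts was 462, with 10 counts asked of all 12 libraries. With each library left out in turn it ran from 596 to 751, and the number accounted for by ovary RNA from 582 to 734. The count of lower genes was less stable. It was 5 with 10 counts asked of all 12 libraries, 204 with overlap allowed, 51 with controls alone, 252 with treated fish alone, 46 without HC5 and HT4 (chosen after seeing the data), and 9 to 106 with each library left out. The mean ovary share of the 5 was 6.94% when read from follicle cell genes. The PNX-14 test with the set as a term gave 0 to 1 genes with each library left out (ENSTNIG00000003883 without HC4), 7 by DESeq2, and 4 by DESeq2 without the set (added after seeing the data). DESeq2 gave 1 for the interaction and 11 for the ovaries. Replicate numbers are shared by the groups, but samples of 1 number did not deviate together throughout (correlations of -0.19 to 0.51 in hypothalami and 0.04 to 0.32 in ovaries). With the number as a block, 1 gene passed for PNX-14 (dpydb) and 1 for the interaction (lysmd3), and 0 for the ovaries. The remaining alternatives for these tests gave 0 genes. The causes of these differences were not tested. Depth limits low genes most: cd40lg had 10 to 21 reads per library in the 5.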
